A study of Mus musculus with 6 samples.

Results

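The motile cilium axoneme genes are the 90 genes of the deposited matrix of 56980 whose symbols carry the names Cfap, Dnah, Dnai, Dnaaf, Rsph, Tekt, Drc or Odad followed by a digit. Their RNA was measured in 6 bulk mouse lung libraries. The DPP3_KO group (3 libraries) came from NSG mice, a strain without mature lymphocytes, that carried an orthotopic mammary fat pad xenograft of human MDA-MB-231 breast cancer cells with DPP3 knocked out, and the Ctrl group (3 libraries) from NSG mice with MDA-MB-231 xenografts. Both groups therefore carried a human tumour, lungs were taken at 5 weeks, and the study asked how DPP3 that tumour cells release in exosomes bears on the lung. The knockout is in the human cells, so mouse Dpp3 in lung does not check the labels. The labels give neither the age nor the sex of the mice and do not say whether the knockout line is a single clone. They also do not say that each library is a separate mouse, so the p-values below measure the spread between these libraries.

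The axoneme is the microtubule core of a motile cilium. Outer and inner dynein arms, multi-subunit motors assembled in the cytoplasm by dedicated factors, drive the beat. Radial spokes and the nexin-dynein regulatory complex control it, and proteins inside the microtubules, tektins among them, stiffen the doublets. In lung many of these genes are used mainly by multiciliated cells of the airways, whose cilia carry mucus out of the lung. RFX factors and FOXJ1 switch them on there. The list was set by name and not by cell type, so some of its genes may be used in other lung cells. Many of the listed genes are also used in the sperm flagellum.

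The values are TPM, transcript abundances scaled to a fixed total, which allow comparison between genes because they are per transcript length, but which keep no sequencing depth. A gene was tested when its mean over the 6 libraries was at least 1 TPM, which left 80 of the 90 axoneme genes and 15650 genes in all. Of the 10 that were not tested, Dnaaf6, Cfap97d1 and Cfap107 were listed at 0 in all 6 libraries, and Rsph6a, Dnah17, Tekt3, Dnah7c, Cfap47, Cfap20dc and Dnaaf8 had means between 0.0283 and 0.948 TPM. The tested gene nearest to the threshold was Dnaaf6b at 1.04 TPM, and the highest mean was that of Rsph1 at 116 TPM. The defining markers of male germ cells were near 0, with 5 of 7 at 0 in every library and none above 0.11 TPM. The ciliated cell markers summed to 1026 to 1090 TPM in DPP3_KO lungs, against 665.4 to 939.9 TPM in Ctrl lungs. The most abundant of them, Tppp3 and Tubb4b, had means of 381 and 242 TPM over the 6 libraries, and each overlapped between groups.

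A large part of the deposited scale was taken by one transcript. Scgb1a1, the club cell secretoglobin, held 28.7%, 21.7% and 27.9% of TPM in DPP3_KO lungs, against 7.69%, 10.1% and 7.16% in Ctrl lungs. Over all tested genes the median log2 change, DPP3_KO minus Ctrl, was -0.60 on deposited TPM. With TPM rescaled without Scgb1a1 it was -0.33, so part of the shift remained without that transcript. The source of the remaining part was not tested. Median-of-ratios scaling, which divides each library by its typical ratio to the others, gave a median of -0.03. Because of this shift, each named axoneme gene has a log2 change on deposited TPM and another on the median-of-ratios scale. Each is to be read against the median of all tested genes on its own scale.

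As deposited, 12 of 80 axoneme genes (15.0%) were higher in DPP3_KO lungs in limma's test at an adjusted p under 0.05, against 1.38% of all tested genes. Another 4 (5.00%) were lower, against 34.0% of all tested genes, and 64 passed in neither direction. After median-of-ratios scaling, 25 of 80 (31.2%) were higher, against 1.90% of all genes, and 55 did not pass. On that scale 0 were lower (limma, 0 also at an unadjusted p under 0.05), against 0.882% of all genes. The 12 genes that were higher as deposited were all among the 25. The median log2 change of the axoneme genes was 0.18 as deposited and 0.66 after scaling, and 73 of 80 lay above the median of all genes on deposited TPM.

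The DPP3_KO and Ctrl values did not overlap for 20 axoneme genes in the higher direction as deposited, against 2.73% of all genes, and for 8 in the lower direction, against 51.1%. After scaling the groups did not overlap for 47 genes, all in the higher direction, against 14.6% of all genes. Leaving out a library leaves every gene with fewer libraries to test. Counts over all genes in those fits are not given here, so a drop cannot be read as particular to axoneme genes. The count of 12 was 0 without Ctrl replicate 1 or Ctrl replicate 2 at an adjusted p under 0.05 (9 and 17 at an unadjusted p, limma). Without each of the other 4 libraries in turn it was 5 to 7. After scaling the count of 25 lay between 1 and 10 when one library was left out, with 1 each without Ctrl replicate 1 and without DPP3_KO replicate 2, 3 each without Ctrl replicate 3 and without DPP3_KO replicate 3, 6 without Ctrl replicate 2 and 10 without DPP3_KO replicate 1.

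Within a group, most axoneme genes were high or low in the same libraries. The median axoneme gene stood at 6.11, 8.45 and 4.46 TPM in DPP3_KO replicates 1, 2 and 3, against 5.08, 6.74 and 4.62 TPM in Ctrl replicates 1, 2 and 3, so the groups overlapped. After scaling the medians were 7.55, 9.3 and 6.37 in DPP3_KO lungs, against 4.04, 4.97 and 3.89 in Ctrl lungs, with no overlap. DPP3_KO replicate 2 was the highest DPP3_KO library for 71 of 80 axoneme genes (49.1% of all genes), DPP3_KO replicate 3 the lowest for 62 (52.2% of all genes), and Ctrl replicate 2 the highest Ctrl library for 63 (42.1% of all genes). In bulk tissue, more or fewer ciliated cells and more or less RNA per cell cannot be told apart.

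**Figure D1:**
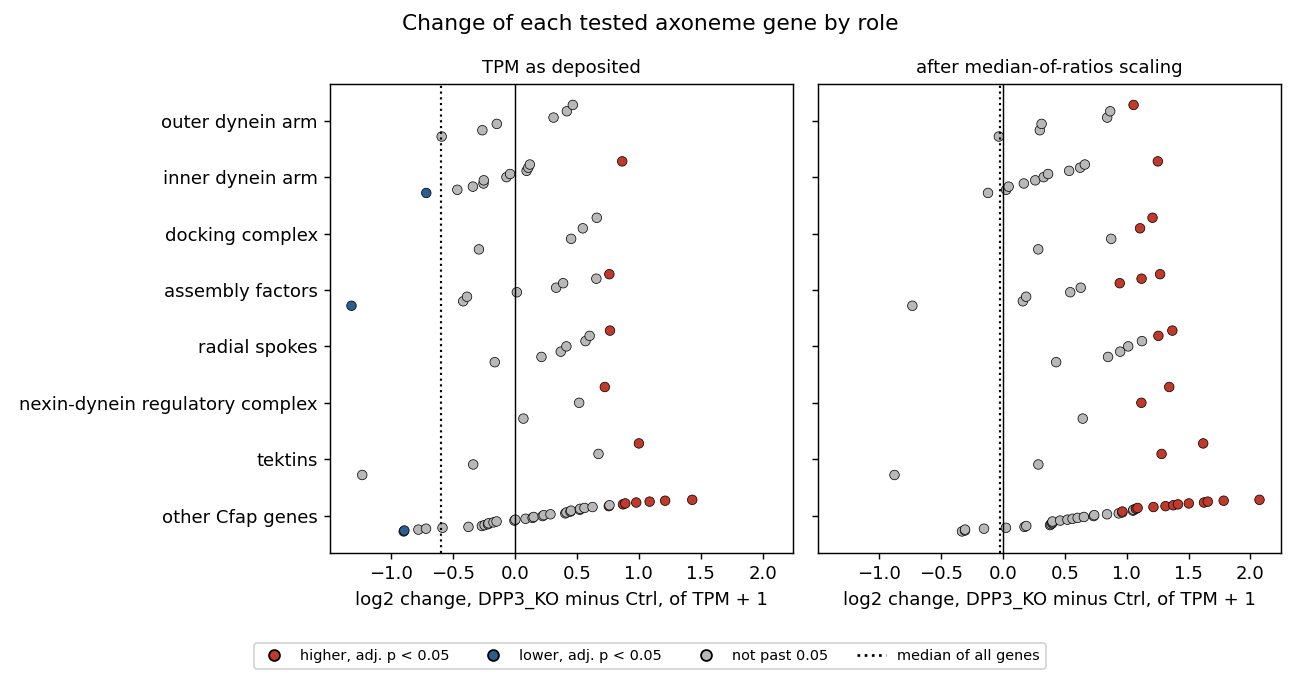
Log2 change (DPP3_KO minus Ctrl, log2 of TPM + 1) of each tested axoneme gene by role, on deposited TPM on the left and after median-of-ratios scaling on the right. Each point is a gene, red where it was higher and blue where it was lower at an adjusted p under 0.05 (limma), and the dotted line is the median of all tested genes. Most points lie right of the dotted line, and the 4 genes that were lower on the left are grey on the right. Dnah2os, an antisense RNA, is not drawn.

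Counts by role are to be read against all tested genes. Of those, 1.38% were higher and 34.0% lower as deposited, and 1.90% and 0.882% after scaling. The outer dynein arm provides most of the power of the beat. Of its 7 genes 6 were tested, and as deposited 0 passed in either direction (0 at an unadjusted p under 0.05, limma), with a median log2 change of 0.08. After scaling 1 was higher and the median was 0.58. Dnah5, the heavy chain present along the whole arm row, had 3.47, 4.89 and 1.49 TPM in DPP3_KO lungs, against 1.45, 2.65 and 2.07 TPM in Ctrl lungs. DPP3_KO replicate 3 lay within the Ctrl values, and the log2 change of 0.42 ± 0.36 (SE) did not pass (adjusted p = 0.371, limma). After scaling its groups did not overlap, and the log2 change was 0.87 (adjusted p = 0.164). Dnah9, its partner in the distal part of the cilium, had 4.82, 6.55 and 4.06 TPM in DPP3_KO lungs, against 2.47, 5.62 and 4.07 TPM in Ctrl lungs. The groups overlapped as deposited, with a log2 change of 0.31 (adjusted p = 0.420). After scaling they did not overlap, and the change was 0.84 (adjusted p = 0.112).

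The intermediate chains Dnai1 and Dnai2, which anchor the outer arm, had changes of opposite sign as deposited, and neither passed on that scale. Dnai2 had 11.62, 13.54 and 7.74 TPM in DPP3_KO lungs, against 7.51, 8.74 and 6.33 TPM in Ctrl lungs, with a log2 change of 0.47 (adjusted p = 0.164) as deposited. After scaling it was the outer arm gene that passed, at 1.06 (adjusted p = 0.0332, limma). Dnai1 had 4.65, 7.03 and 4.54 TPM in DPP3_KO lungs, against 5.59, 10.0 and 5.01 TPM in Ctrl lungs, and its log2 change of -0.26 (adjusted p = 0.487) as deposited was 0.30 (adjusted p = 0.482) after scaling. The groups overlapped for both genes as deposited, and after scaling for Dnai1 but not for Dnai2. Dnah11, the proximal partner of Dnah5, had a log2 change of -0.15 (adjusted p = 0.679) and Dnah8, best known from the sperm flagellum, one of -0.59 (adjusted p = 0.139), and after scaling these were 0.31 and -0.03.

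The inner arms set the shape of the beat, and 11 of their 12 genes were tested. As deposited 1 was higher and 1 lower, the median log2 change being -0.07, and after scaling 1 was higher and the median was 0.33. The gene that was lower was Dnai3, an intermediate chain of an inner arm, with 5.91, 8.03 and 7.85 TPM in DPP3_KO lungs, against 9.98, 15.93 and 12.22 TPM in Ctrl lungs. All 3 DPP3_KO values lay below the Ctrl values, and the log2 change was -0.72 ± 0.23 (adjusted p = 0.0465, limma). After scaling it was -0.12 (adjusted p = 0.770).

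The inner arm gene that was higher was Dnah7a, with 2.24, 2.32 and 2.88 TPM in DPP3_KO lungs, against 0.84, 0.76 and 1.13 TPM in Ctrl lungs. Its log2 change was 0.87 ± 0.24 (adjusted p = 0.0318), and 1.25 (adjusted p = 0.0495) after scaling. Dnah7a has the close copies Dnah7b and Dnah7c, between which reads could have been split, so the value of Dnah7a alone is uncertain. Summed over the 3 copies, TPM was 4.25, 5.79 and 4.66 in DPP3_KO lungs, against 2.61, 3.24 and 2.42 in Ctrl lungs, and the groups did not overlap. Dnah7b alone overlapped as deposited, with a log2 change of 0.12 (adjusted p = 0.737). After scaling it did not overlap, with a change of 0.53 (adjusted p = 0.210).

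Among the most abundant other inner arm genes, Dnai4 and Dnah6 did not pass on either scale. Dnai4, an intermediate chain gene, had 7.52, 11.09 and 4.2 TPM in DPP3_KO lungs, against 6.28, 8.59 and 5.32 TPM in Ctrl lungs, and Dnah6, a heavy chain, had 5.34, 6.18 and 2.27 TPM in DPP3_KO lungs, against 2.87, 5.46 and 3.77 TPM in Ctrl lungs. The log2 changes were 0.09 and 0.11 as deposited, and 0.66 and 0.62 after scaling. Both genes were lowest in DPP3_KO replicate 3 and overlapped between groups. Dnah2os, an RNA antisense to the heavy chain gene Dnah2, had a log2 change of -0.30 (adjusted p = 0.616) as deposited and 0.25 after scaling. The strand setting is not given in the sources used here, so its reads and those of Dnah2 cannot be told apart.

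The docking complex ties the outer arm to the doublet. As deposited 0 of its 4 genes passed (1 was higher at an unadjusted p under 0.05, limma), the median log2 change being 0.50, and after scaling 2 were higher and the median was 0.99. Odad4 had 6.48, 10.19 and 5.41 TPM in DPP3_KO lungs, against 4.92, 4.44 and 3.22 TPM in Ctrl lungs, and Odad3 had 6.51, 10.87 and 6.19 TPM in DPP3_KO lungs, against 4.14, 6.13 and 4.6 TPM in Ctrl lungs. Neither gene overlapped between groups, and their log2 changes of 0.66 (adjusted p = 0.0911) and 0.55 (adjusted p = 0.134) became 1.21 (adjusted p = 0.0381) and 1.11 (adjusted p = 0.0452) after scaling. Odad1 overlapped, at -0.29 (adjusted p = 0.389) as deposited and 0.28 after scaling.

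The Dnaaf genes encode factors that fold and assemble dynein arms in the cytoplasm. Of the 8 tested, 1 was higher and 1 lower as deposited, and 3 were higher and 0 lower after scaling (0 lower at an unadjusted p, limma). The median log2 change was 0.17 as deposited and 0.59 after scaling. Dnaaf1 had 5.62, 6.72 and 3.75 TPM in DPP3_KO lungs, against 2.37, 2.95 and 2.74 TPM in Ctrl lungs, and was higher by 0.76 ± 0.25 on the log2 scale (adjusted p = 0.0482). Its lowest DPP3_KO value was above its highest Ctrl value, and the change after scaling was 1.27 (adjusted p = 0.0241).

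Dnaaf9, the most abundant of the assembly factors and the counterpart of a Tetrahymena protein that holds outer arms inactive on their way into the cilium, was lower. It had 9.35, 5.78 and 3.54 TPM in DPP3_KO lungs, against 15.1, 23.38 and 11.69 TPM in Ctrl lungs, with no overlap. It fell by 1.32 ± 0.36 on the log2 scale as deposited (adjusted p = 0.0316), the lowest change of the 80 axoneme genes, and stood at -0.73 (adjusted p = 0.234) after scaling. Dnaaf10 and Dnaaf5 did not pass on either scale, with deposited log2 changes of -0.42 and -0.39, and 0.16 and 0.19 once scaled.

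Radial spokes carry signals from the central pair of microtubules to the arms. Of the 7 tested spoke genes 1 was higher as deposited and 2 were higher after scaling, with medians of 0.41 and 1.01. Rsph9, a subunit of the spoke head, had 12.36, 17.12 and 16.23 TPM in DPP3_KO lungs, against 8.8, 8.5 and 8.09 TPM in Ctrl lungs. The groups did not overlap, and the log2 change was 0.77 ± 0.19 (adjusted p = 0.0247), and 1.37 (adjusted p = 0.0207) after scaling. Rsph1, another head subunit and the most abundant axoneme gene in these lungs, had 151.36, 148.15 and 119.46 TPM in DPP3_KO lungs, against 83.21, 119.91 and 75.79 TPM in Ctrl lungs. DPP3_KO replicate 3 and Ctrl replicate 2 were nearly level, and the log2 change of 0.60 (adjusted p = 0.0676) passed after scaling, at 1.26 (adjusted p = 0.0244). The spoke stalk genes Rsph3a and Rsph3b are close copies of each other, so their values are uncertain singly. Their summed TPM was 63.6, 74.55 and 85.52 in DPP3_KO lungs, against 53.43, 59.99 and 65.26 in Ctrl lungs, which overlapped. After scaling the sums were 78.7, 82.1 and 122 in DPP3_KO lungs, against 42.5, 44.2 and 54.9 in Ctrl lungs, with no overlap. Neither gene passed alone on either scale, with log2 changes of 0.21 for Rsph3a and 0.37 for Rsph3b as deposited, and 0.85 and 1.01 after scaling.

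The nexin-dynein regulatory complex links neighbouring doublets, and all 3 of its genes in the list were tested. Drc3 was higher, with 21.37, 26.22 and 17.24 TPM in DPP3_KO lungs, against 11.18, 16.13 and 10.78 TPM in Ctrl lungs. The groups did not overlap, though DPP3_KO replicate 3 and Ctrl replicate 2 lay close together. The log2 change was 0.73 ± 0.24 (adjusted p = 0.0485) as deposited and 1.34 (adjusted p = 0.0171) after scaling. Drc1, a scaffold of the complex, had a log2 change of 0.52 (adjusted p = 0.154) as deposited and was higher after scaling, at 1.12 (adjusted p = 0.0486). Drc7 did not pass on either scale, at 0.07 and 0.64.

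Tektins form filaments inside the doublets, and 4 of the 5 were tested. Tekt1 had 21.49, 31.82 and 20.3 TPM in DPP3_KO lungs, against 9.36, 13.87 and 11.73 TPM in Ctrl lungs, with no overlap. Its log2 change was 1.00 ± 0.24 (adjusted p = 0.0230) as deposited and 1.62 (adjusted p = 0.0141) after scaling. Tekt4 had 13.26, 21.28 and 14.89 TPM in DPP3_KO lungs, against 10.09, 11.57 and 7.91 TPM in Ctrl lungs, also without overlap. It passed after scaling, at 1.28 (adjusted p = 0.0241), and not as deposited, at 0.67 (adjusted p = 0.0610).

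Tekt2 and Tekt5 did not pass on either scale. Tekt2 had 20.82, 12.07 and 14.6 TPM in DPP3_KO lungs, against 29.34, 20.39 and 12.86 TPM in Ctrl lungs, and overlapped, with a log2 change of -0.34 on deposited TPM (adjusted p = 0.426) and of 0.29 after scaling. Tekt5 had 0.63, 0.92 and 0.39 TPM in DPP3_KO lungs, against 5.33, 4.04 and 0.78 TPM in Ctrl lungs. Ctrl replicates 1 and 2 stood apart from the other 4 libraries, and the log2 change of -1.24 did not pass (adjusted p = 0.0801), nor did that of -0.88 after scaling (adjusted p = 0.286).

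The other Cfap genes are the largest group, with 36 of 40 tested, and are named for their association with cilia and flagella rather than for one structure. As deposited 7 were higher and 2 lower, against 1.38% and 34.0% of all genes, the median log2 change being 0.23. After scaling 12 were higher, against 1.90% of all genes, and the median was 0.74. Cfap126, which acts in the placement of basal bodies, was the axoneme gene with the highest change, with 65.52, 79.16 and 68.09 TPM in DPP3_KO lungs, against 19.53, 30.59 and 27.91 TPM in Ctrl lungs. Its mean was 2.73-fold higher, at 70.9 ± 7.25 TPM in DPP3_KO lungs and 26.0 ± 5.77 TPM in Ctrl lungs (SD, n = 3 libraries each). The log2 change was 1.43 ± 0.21 (adjusted p = 0.0145, limma) as deposited and 2.07 (adjusted p = 0.0113) after scaling.

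Cfap141 and Cfap276, both proteins of the inside of the doublet, and Cfap299 were the next highest among the other Cfap genes. Cfap276 had 11.45, 13.48 and 10.97 TPM in DPP3_KO lungs, against 3.51, 6.76 and 3.95 TPM in Ctrl lungs. Cfap299 had 9.81, 11.51 and 10.71 TPM in DPP3_KO lungs, against 3.84, 5.97 and 3.89 TPM in Ctrl lungs. Cfap141 had 76.37, 84.83 and 59.02 TPM in DPP3_KO lungs, against 35.68, 39.03 and 34.43 TPM in Ctrl lungs. None of these genes overlapped between groups, and in each the lowest DPP3_KO value was above the highest Ctrl value. The log2 changes were 1.21 (adjusted p = 0.0186), 1.09 (adjusted p = 0.0176) and 0.98 (adjusted p = 0.0171) for Cfap276, Cfap299 and Cfap141, and after scaling 1.78, 1.66 and 1.62. The remaining Cfap genes that were higher as deposited were Cfap45, Cfap95 and Cfap53, named after their values were seen, with log2 changes of 0.89, 0.87 and 0.76 and adjusted p-values of 0.0226, 0.0338 and 0.0446. After scaling their changes were 1.502, 1.41 and 1.31, and all 3 passed.

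Both Cfap genes that were lower as deposited lost the call after scaling. Cfap65, known for its part in sperm flagella, had 6.03, 9.49 and 4.44 TPM in DPP3_KO lungs, against 10.76, 15.68 and 12.15 TPM in Ctrl lungs, a log2 change of -0.89 ± 0.28 (adjusted p = 0.0454). Cfap97 had 5.56, 5.83 and 3.22 TPM in DPP3_KO lungs, against 7.94, 12.34 and 9.3 TPM in Ctrl lungs, a log2 change of -0.90 ± 0.27 (adjusted p = 0.0383). Neither overlapped between groups as deposited. After scaling their groups overlapped and the changes were -0.31 (adjusted p = 0.433) for Cfap65 and -0.33 (adjusted p = 0.382) for Cfap97. Cfap74, a protein of the central apparatus, had -0.78 (adjusted p = 0.105) and Cfap20, found at the inner junction of the doublet, -0.25 (adjusted p = 0.321) as deposited, and -0.31 and 0.40 after scaling.

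**Figure D2:**
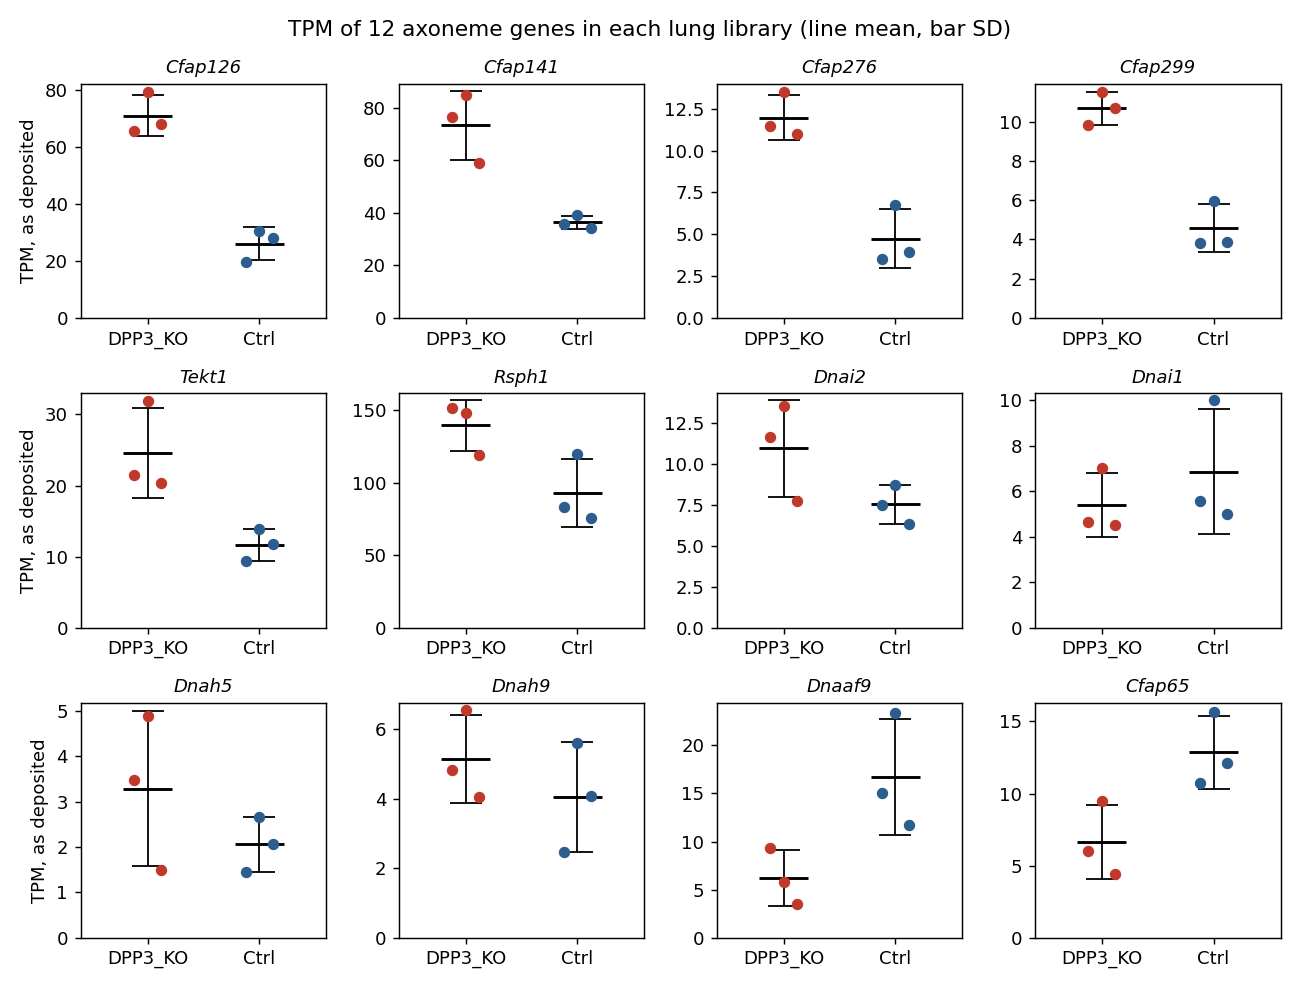
Deposited TPM of 12 axoneme genes in each library, with DPP3_KO left and Ctrl right in each panel, points for single libraries (3 per group), the line for the mean and the bar for the SD. The groups are apart for Cfap126, Cfap141, Cfap276, Cfap299 and Tekt1 in the higher direction and for Dnaaf9 and Cfap65 in the lower direction, and they overlap for Rsph1, Dnai2, Dnai1, Dnah5 and Dnah9.

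Foxj1, the regulator of motile cilia genes, had 50.6, 71.23 and 53.25 TPM in DPP3_KO lungs, against 18.57, 24.38 and 21.62 TPM in Ctrl lungs. Its log2 change was 1.39 (adjusted p = 0.0145), and Cfap126 was the 1 axoneme gene with a greater change. The median axoneme gene, expressed per TPM of Foxj1, stood at 0.121, 0.119 and 0.0837 in DPP3_KO lungs, against 0.273, 0.276 and 0.214 in Ctrl lungs. This ratio does not depend on how a library is scaled, and its groups did not overlap. Because only 1 axoneme gene changed more than Foxj1, a lower ratio in DPP3_KO lungs followed from the choice of divisor. It is not a separate result. Among the 9 tested ciliated cell markers 4 were higher as deposited, namely Foxj1, Tmem212, Sntn and Dynlrb2, with log2 changes of 1.39, 1.28, 1.22 and 1.29. The most abundant one, Tppp3, had -0.14 (adjusted p = 0.603). After scaling the same 4 were higher, and Tppp3 had 0.52 (adjusted p = 0.220, limma). On that scale all 9 were higher in DPP3_KO lungs without overlap, against 14.6% of all genes.

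Ratios between axoneme genes of one library also do not depend on scaling, and 5 were compared. Tekt2 per Tekt1 was 0.969, 0.379 and 0.719 in DPP3_KO lungs, against 3.13, 1.47 and 1.1 in Ctrl lungs. Dnai2 per Dnai1 was 2.5, 1.93 and 1.7 in DPP3_KO lungs, against 1.34, 0.874 and 1.26 in Ctrl lungs. Dnah11 per Dnah5 was 0.83, 0.618 and 0.953 in DPP3_KO lungs, against 1.66, 1.01 and 1.5 in Ctrl lungs. For these pairs of genes the groups did not overlap, with log2 differences of -1.42, 0.82 and -0.79. Each gave p = 0.1 in the exact two-sided permutation test, the smallest p that the 20 splits of 3 against 3 libraries allow, and 0.167 adjusted over the 5 ratios. Dnah9 per Dnah5 and Rsph9 per Rsph1 overlapped, with log2 differences of -0.16 (exact p = 0.8) and 0.23 (exact p = 0.5).

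**Figure D3:**
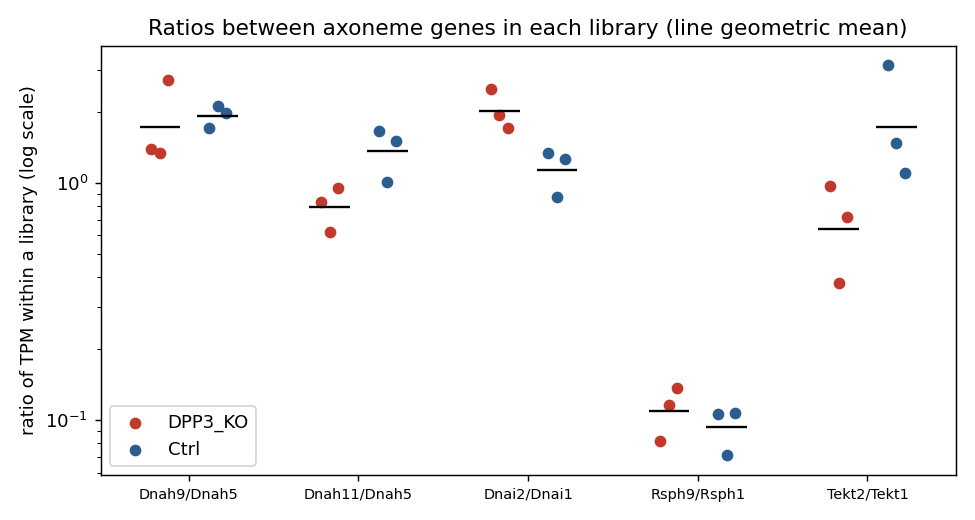
Ratio of TPM between the genes of 5 axoneme pairs within each library on a log axis, with DPP3_KO in red left of Ctrl in blue, points for single libraries and lines for the geometric mean. Dnah11/Dnah5, Dnai2/Dnai1 and Tekt2/Tekt1 separate the groups, and Dnah9/Dnah5 and Rsph9/Rsph1 do not.

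The size of the change went with gene length. The 7 tested axoneme genes shorter than 1000 bases had a median log2 change of 0.87 as deposited and 1.42 after scaling, and 5 of them were higher as deposited, against 4.5% of all genes of that length. The 13 of 10000 bases or more, all dynein heavy chains, had -0.07 and 0.33, and 1 was higher as deposited, against 1.2% of all genes of that length. Between these, the medians after scaling were 1.01 for 20 genes of 1000 to 2000 bases, 0.75 for 30 genes of 2000 to 4000 bases and 0.28 for 10 genes of 4000 to 10000 bases. Over all tested genes the medians after scaling also declined with length, at 0.30 below 1000 bases and -0.26 at 10000 bases or more. The tested heavy chains were also low, at means of 1.63 to 6.07 TPM, and log2(TPM + 1) understates the change of low genes. Length and abundance were not separated here, and the part of abundance in this trend was not tested.

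Across the 80 axoneme genes, Pearson's r between log10 length and the scaled log2 change was -0.47, against -0.166 over all tested genes. Spearman's rho was -0.492 across the axoneme genes, against -0.332 over all tested genes. The axoneme genes are not independent replicates and share the same libraries. With each library's trend with length also removed, r was -0.142 over the axoneme genes. On that scale 13 of 80 were higher and 0 lower (limma), against 1.18% and 0.575% of all genes, and 10 of them were higher on all 3 scales. The median log2 change was then 0.62 for the heavy chains and 0.75 for the other axoneme genes, against 0.33 and 0.84 before the trend was removed.

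**Figure D4:**
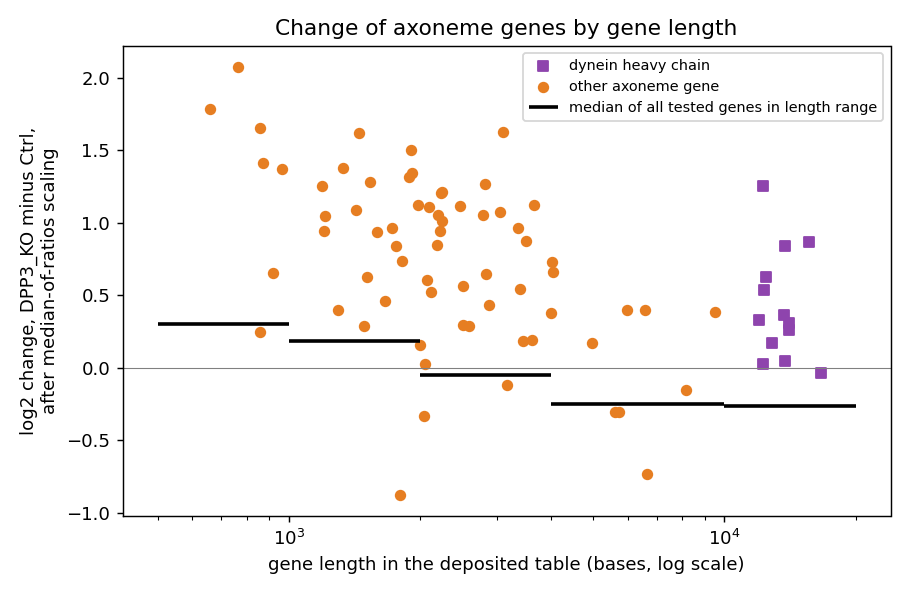
Log2 change (DPP3_KO minus Ctrl, after median-of-ratios scaling) of each tested axoneme gene against gene length in the deposited table on a log axis, with heavy chains as purple squares, other axoneme genes as orange circles and the median of all tested genes in each length range as a black line. Short genes reach 2.07 (Cfap126) and most heavy chains lie below 1, while most axoneme genes of every length lie above the black line.

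Genes of the axoneme outside these name patterns were listed as well, from the central apparatus, arm light chains, preassembly, ruler and regulatory proteins, spoke partners and microtubule inner proteins. Of 70 listed, 57 were found in the matrix by symbol and 53 were tested. As deposited 8 were higher and 0 lower (limma, 0 lower at an unadjusted p), the median log2 change being 0.33, and after scaling 14 were higher with a median of 0.88. The background is the same 1.38% and 1.90% of all genes. Dynlrb2, higher on both scales, is also counted among the ciliated cell markers above. Pierce1, a microtubule inner protein gene, had the highest change at 1.55 (adjusted p = 0.0145). Of the 8 tested central apparatus genes 0 passed on either scale (limma, 0 at an unadjusted p as deposited and 4 after scaling), with medians of 0.09 and 0.62.

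Markers of other cell types also differed between the groups, some lists higher and others lower in DPP3_KO lungs. Club cell markers summed to 232700 to 300900 TPM in DPP3_KO lungs, against 77210 to 108000 TPM in Ctrl lungs. Most of this sum was Scgb1a1. Cyp2f2, Hp, Aldh1a1 and Chad each overlapped between groups as deposited, though not after scaling. Heart muscle markers summed to 1346 to 1638 TPM in DPP3_KO lungs, against 380.6 to 747.4 TPM in Ctrl lungs, and neuroendocrine markers to 18.65 to 30.73 TPM in DPP3_KO lungs, against 5.85 to 8.69 TPM in Ctrl lungs. Higher in Ctrl lungs were the sums for alveolar type 1 cells, at 946.8 to 2210 TPM in DPP3_KO lungs and 2719 to 4752 TPM in Ctrl lungs, and for capillary endothelium, at 405.3 to 815.4 TPM in DPP3_KO lungs and 2038 to 2596 TPM in Ctrl lungs. The sums of alveolar type 2 markers overlapped, at 18500 to 29340 TPM in DPP3_KO lungs and 25860 to 48260 TPM in Ctrl lungs. Taken singly, 6 of these 7 markers were lower in DPP3_KO lungs without overlap as deposited, against 51.1% of all genes. After scaling 3 were, against 15.4% of all genes. Basal airway cell markers were low throughout, at 1.78 to 4.38 TPM in DPP3_KO lungs and 0.7 to 1.7 TPM in Ctrl lungs. As deposited, 3 of 7 tested club cell, 5 of 6 heart muscle and 2 of 3 neuroendocrine markers were higher, and 7 of 8 alveolar type 1, 4 of 7 alveolar type 2 and 8 of 8 capillary markers were lower (limma, adjusted p under 0.05), against 1.38% of all genes higher and 34.0% lower. After scaling, 2 club cell, 5 heart muscle and 2 neuroendocrine markers were higher, against 1.90% of all genes. On that scale 2 alveolar type 1, 0 alveolar type 2 (3 at an unadjusted p, limma) and 2 capillary markers were lower, against 0.882% of all genes. No marker of these lists was at 0 in every library. The part of these differences in the axoneme results was not tested.

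Promoters of the axoneme genes were searched for the motifs of the factors that switch on motile cilia genes. RefSeq windows (build GRCm38.p6, 250 bases before to 50 after the gene start) could be matched by gene identifier for 71 of the 90 genes. The X-box bound by RFX factors, searched on both strands as the letters GTNNCC and GNAAC with 3 free bases between them and overlapping matches merged, was present in 15 of 71 (21.1%), against 673 of 27025 genes with a window (2.49%). It was present in 6 of the 18 axoneme genes with a window that were higher after scaling (33.3%) and in 6 of 44 tested ones that were not (13.6%). The forkhead motif GTAAACA was in 4 of 71 (5.63%), against 1095 of 27025 (4.05%). The matches of the 6 genes that were higher after scaling are given first, each along the strand of its gene, with the X-box in capitals (on either strand) and 5 flanking bases on each side, followed by those of Cfap44 and Dnaaf2, which did not pass on either scale.
Cfap45: cttggGTTGCTATGGTAACgcgtc
Cfap95: cctcgGTTGCTAAGGAGACaagag
Cfap206: gttccGTTTCCACGGTTACgcgac
Cfap298: ttttgGTTGCCCGGGCAACagcta
Odad3: gggcgGTTTCCTTGGGAACgtggg
Tekt4, first match: cacctGTGTCCTGGGAAACaaact
Tekt4, second match: acaatGTTCCTTAGGCAACcagga
Cfap44: gggacGTTGCTATGGCAACcgcag
Dnaaf2: caggcGTTACTATGGCAACaaagc

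Most of these matches lay close to the gene start: 19 bases before it in Cfap45, 18 in Cfap95, 23 in Cfap206, 34 in Odad3, 27 in Cfap44 and 17 in Dnaaf2, but 188 in Cfap298 and 160 for the first match of Tekt4. A match is a description of letters and not of binding. The whole windows of 3 genes follow, to show a promoter with 1 match near its start (Cfap45, chr1:172520880-172521179, plus strand), one with 2 matches (Tekt4, chr17:25471340-25471639, plus strand) and that of Cfap276 (chr3:108537334-108537633, plus strand), whose change as deposited was second only to Cfap126 and whose window held no match. Capitals mark the X-box.
Cfap45: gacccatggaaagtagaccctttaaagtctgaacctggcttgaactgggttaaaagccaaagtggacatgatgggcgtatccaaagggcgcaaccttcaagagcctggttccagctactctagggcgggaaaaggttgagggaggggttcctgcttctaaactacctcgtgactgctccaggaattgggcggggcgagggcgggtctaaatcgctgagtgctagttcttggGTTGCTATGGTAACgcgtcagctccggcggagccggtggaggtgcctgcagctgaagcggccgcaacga
Tekt4: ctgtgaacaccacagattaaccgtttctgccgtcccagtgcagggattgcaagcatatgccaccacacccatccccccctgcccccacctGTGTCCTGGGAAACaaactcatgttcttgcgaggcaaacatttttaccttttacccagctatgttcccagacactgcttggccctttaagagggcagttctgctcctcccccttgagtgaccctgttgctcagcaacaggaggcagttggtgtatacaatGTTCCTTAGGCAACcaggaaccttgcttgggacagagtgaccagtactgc
Cfap276: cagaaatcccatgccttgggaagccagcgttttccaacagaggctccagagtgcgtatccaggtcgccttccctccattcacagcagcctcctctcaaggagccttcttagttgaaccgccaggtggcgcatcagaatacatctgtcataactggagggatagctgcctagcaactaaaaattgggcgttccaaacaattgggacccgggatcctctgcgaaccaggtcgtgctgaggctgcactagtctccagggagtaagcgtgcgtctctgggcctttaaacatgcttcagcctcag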

How the data were processed

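Per the labels' protocols, a TruSeq kit was used on total lung RNA. The authors deposited TPM for 56980 genes in one matrix, with Ensembl identifiers, symbols and lengths, and all value columns matched a sample. The submitters' processing notes name HISAT2, StringTie, RSEM and GRCm39, with no versions or roles. Which annotation and strand setting were used, and how human reads were handled, is not given in the sources used here. Columns sum to 999999.83 to 1000000.94, so depth is unknown and no counting interval is given. Groups and replicate numbers came from the sample titles. The third Ctrl title carries another cell line number and was taken as a typing error.

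TPM was changed to log2(TPM + 1), and genes averaging 1 TPM or more were fitted with limma 3.58.1 in R 4.3.3 (eBayes with an intensity trend), two-sided, DPP3_KO minus Ctrl, with Benjamini-Hochberg adjustment over all 15650 tested genes. A fold change on this scale understates the change of low genes. Median-of-ratios factors came from genes above 0 in all 6 libraries, and the length trend was removed per library by lowess (span 0.3). The fit was also run on simulated data with independent noise for each gene. Such data do not hold variation that genes of a library share, so that run cannot speak to it. Genes named were the 3 most abundant of each role, the 5 highest and 5 lowest changes, those called lower, the ratio pairs and the ciliated markers, with Cfap45, Cfap95, Cfap53, Dnaaf1, Dnah7a, Dnah7b and Pierce1 and the promoter examples chosen after their values were seen. The genes and lists were chosen with earlier results of these data known. Promoter windows are from RefSeq on GRCm38.p6, matched by gene identifier through GENCODE M21, and not by coordinates of the deposited build. Other pseudocounts, filters, scalings, a replicate block and leaving out each library were tried.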

Additional observations from a re-analysis of the deposited data

How the results depend on the processing

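The counts of 12 higher and 4 lower axoneme genes stayed within 1.5 times under pseudocounts of 0.1 and 5, a mean of at least 5 TPM and limma without the trend. As deposited, 6 roles had a gene called higher. TPM rescaled without Scgb1a1 gave 7 higher, 0 lower (limma, 2 at an unadjusted p under 0.05) and 3 roles with a call. No filter gave 7, 0 and 3, with 5 other axoneme genes higher. Over all tested genes both counts also fell in these fits, from 216 higher and 5321 lower as deposited. The drop therefore cannot be read as particular to axoneme genes. Median-of-ratios scaling gave 25 higher and 0 lower, a median of 0.66 and 14 other axoneme genes. Quantile normalization gave 25, 0, 0.73 and 16, and removal of the length trend 0 lower and a median of 0.69. Over all tested genes the count of higher genes also rose under median-of-ratios scaling and quantile normalization, and fell with the length trend removed. The count of lower genes over all tested genes fell under each of them. The direction of genes that had not passed turned under these settings. Without Scgb1a1 the log2 changes were 0.0589 for Cfap20, 0.0750 for Dnah11 and 0.000504 for Dnai1. After median-of-ratios scaling they were 0.40 for Cfap20, 0.16 for Dnaaf10, 0.19 for Dnaaf5, 0.31 for Dnah11, 0.25 for Dnah2os, 0.30 for Dnai1, 0.28 for Odad1 and 0.29 for Tekt2. With quantile normalization they were 0.37 for Cfap20, 0.22 for Dnaaf10, 0.25 for Dnaaf5, 0.33 for Dnah11, 0.27 for Dnah2os, 0.00347 for Dnah8, 0.34 for Dnai1, 0.35 for Odad1 and 0.34 for Tekt2. With the length trend removed they were 0.15 for Cfap20, 0.0626 for Dnaaf10, 0.28 for Dnaaf5, 0.60 for Dnah11, 0.25 for Dnah8, 0.28 for Dnai1, 0.28 for Odad1 and 0.0788 for Tekt2. The cause was not tested.

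Leaving out each library gave 0 to 7 axoneme genes higher, 0 to 3 lower, 0 to 3 roles with a call and 0 to 7 other axoneme genes. After median-of-ratios scaling it gave 1 to 10 axoneme genes higher, 1 to 4 roles and 1 to 10 other genes. These fits had fewer libraries for every gene, and their counts over all genes are not given here. Log2 changes of both signs were seen for Dnah11 (-0.28 to 0.0879), Dnah2os (-0.66 to 0.0840), Dnah6 (-0.11 to 0.45), Dnai1 (-0.44 to 0.00402), Dnai4 (-0.19 to 0.41) and Drc7 (-0.0203 to 0.13), after scaling for Dnah2os (-0.20 to 0.71), Dnah8 (-0.26 to 0.13) and Dnai3 (-0.26 to 0.0145), and for the ratio of Dnah9 to Dnah5 (-0.49 to 0.0173).

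Over all tested genes, the deviations of same-numbered libraries from their group means had correlations of 0.271, -0.206 and 0.147, so not every pair exceeded 0.1, and not every library correlated best with its own number. The median axoneme gene was highest in replicate 2 in both groups, at 8.45 TPM in DPP3_KO and 6.74 TPM in Ctrl lungs. With the replicate number as a block, 11 axoneme genes were higher and 5 lower as deposited. These gave 5 roles with a call, and 8 other axoneme genes were higher. Over all tested genes the block gave fewer calls in both directions as deposited. After median-of-ratios scaling with the block, 1 axoneme gene was higher, in 1 role and with 1 other gene. The block's counts over all genes on that scale are not given here. TPM keeps no depth, so the precision of the low genes, among them the heavy chains at means of 1.63 to 6.07 TPM, is unknown.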
